A study of Mus musculus with 3 samples.

Results

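The genes described here are 10 transcription factors known to shape the cell lineages of the gastric unit or the gut epithelium at large: Bhlha15, Xbp1, Klf4, Foxq1, Ehf, Sox21, Esrrb, Tfcp2l1, Elf3 and Hnf4a. They are taken by name, proposed with earlier results of these data in view, and are 10 of the 18194 genes that the array's gene table names. All of their 27 probe sets, out of 45101 on the array, were taken by gene symbol, Bhlha15 having once been called Bhlhb8 and being widely known as Mist1.

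In the gastric corpus, stem cells of a narrow isthmus give rise to mucous pit cells that move up towards the lumen, to acid-secreting parietal cells, and to mucous neck cells that become zymogenic (chief) cells at the base. Each fate is held by its own transcription factors, acting on a background of factors common to endodermal epithelia. Bhlha15 and Xbp1 build the secretory machinery of enzyme-secreting cells, Klf4 and Foxq1 act in mucous cells of the gut surface, and Ehf, Elf3 and Hnf4a are found widely in epithelia.

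RNA was measured on 3 Affymetrix mouse arrays, 1 each for parietal, zymogenic and pit cells of mouse stomach cut out under the microscope by laser capture (spot size 7.5 µm). Parietal cells were known by the lectin DBA and autofluorescence and came from the pit zone. Pit cells, E-cadherin-positive and DBA-negative, came from the same units, from the uppermost 2 to 3 cells below the surface, and zymogenic cells, E-cadherin-positive and negative for GSII and DBA, from unit bases cut from other slides once neighbouring parietal cells had been taken out and discarded. Each group pooled 3000 to 5000 cells of 4 to 5 mice into 20 ng of RNA, which was amplified. No strain, genotype, treatment, sex or age of the mice is given in the sources used here.

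Pooling leaves 1 value per probe set and lineage. There is therefore no replicate error, no test and no p-value, and every difference below describes these 3 arrays. For the zymogenic array, the slides and the lineage cannot be told apart, and fewer cells of a type and less RNA per cell cannot be told apart on any array. Values are linear intensities as deposited. A detection floor of 23.3 was taken from 80 probe sets of olfactory and vomeronasal receptors, as the highest over the arrays of their 95th percentile. Folds use values raised to that floor, and a fold against a value under it is a lower bound. Different probe sets of 1 gene gave log2 ratios between arrays that scattered with an SD of 0.48, over 785 combinations of gene and array pair. This is the only measure of precision at hand. It compares probe sets above the floor within the same RNA, so variation between captures, pools, amplifications and arrays is not in it. A difference larger than this SD is thus not shown to exceed error. Levels of different genes are not compared, since probe sets differ in brightness.

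The collections carried signal of each other's markers. The 8 pit markers on the array were all above the floor in both the parietal and the pit collection, with summed levels of 22430 and 16240 against 223 in zymogenic RNA. Gkn1 and Gkn2 made up most of the parietal and pit sums, at 10493 and 7987 in parietal and 8307 and 2723 in pit RNA. With Ctse and Sult1c2 they were higher in parietal RNA, whereas Krt20, Muc5ac, Tff1 and Psca were higher in pit RNA. Krt20 read 657 in pit and 32.2 in parietal RNA. The 13 parietal markers summed to 5782, 1363 and 433 in parietal, zymogenic and pit RNA, and the 6 zymogenic markers to 510, 15118 and 64.4. Endocrine markers were above the floor for 5 of 8 in zymogenic RNA, 0 in parietal and 1 in pit RNA, with sums of 961, 45.9 and 71.0. Mucous neck markers summed to 418, 31.1 and 149 in the same order of parietal, zymogenic and pit. Stromal markers summed to 288, 270 and 166 and immune markers to 112, 148 and 61.3, while 0 of 4 endothelial markers and 1 of 4 proliferation markers rose above the floor on any array.

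All 10 factors exceeded the floor on at least 1 array with their brightest probe set, but only 15 of the 27 probe sets did. Bhlha15 and Xbp1 were highest in zymogenic RNA, although the BioB and BioC hybridisation controls as the scale put Xbp1 slightly higher in parietal RNA, and most of the others were lowest there. The zymogenic array was at least 2-fold higher than both others for 2 factors, Bhlha15 and Xbp1, beside 6.91% of the 4138 genes above the floor on some array. It was at least 2-fold lower than both others for 6 factors, Klf4, Foxq1, Ehf, Sox21, Elf3 and Hnf4a, beside 11.1% of those genes. The pit array was at least 2-fold higher for Foxq1 and Ehf (background 5.78%) and lower for Xbp1 (2.61%). The parietal array was at least 2-fold higher for Sox21 (7.49%) and lower for 0 of the 10 (0.387%).

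**Figure D1:**
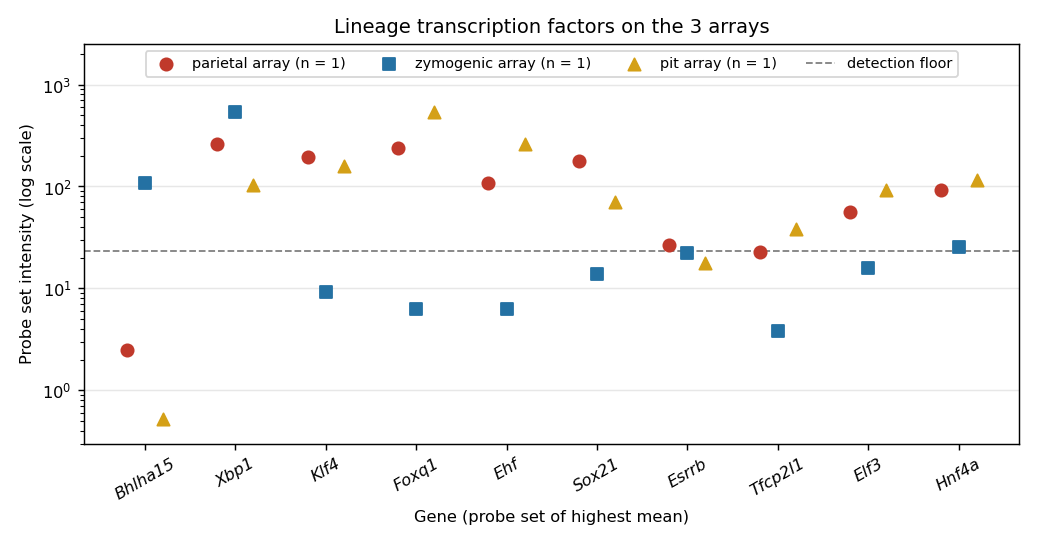
Intensity (log scale) of the brightest probe set of each of the 10 factors in parietal, zymogenic and pit RNA, 1 point per array, with the detection floor of 23.3 dashed. Bhlha15 and Xbp1 are highest in zymogenic RNA (Xbp1 not so when scaled to BioB and BioC), where Klf4, Foxq1, Ehf, Sox21, Elf3 and Hnf4a are lowest.

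Bhlha15 is a basic helix-loop-helix factor of serous secretory cells, needed for zymogenic cells to reach their mature, granule-filled form. Its brighter probe set, 1449233_at, read 109 in zymogenic RNA, 2.49 in parietal RNA and 0.53 in pit RNA. The zymogenic array alone was above the floor, so that the difference was at least 4.68-fold from each of the others. The second probe set, 1418800_at, read 7.06, 3.43 and 7.96 in zymogenic, parietal and pit RNA and was under the floor throughout, so the Bhlha15 result rests on 1 probe set.

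Xbp1 encodes a basic leucine zipper factor of the unfolded protein response, which enlarges the endoplasmic reticulum of secretory cells once its RNA is spliced by IRE1. Its brightest probe set, 1437223_s_at, read 539 in zymogenic RNA, 263 in parietal RNA and 103 in pit RNA. The zymogenic value was 2.05-fold the parietal and 5.25-fold the pit value, and the parietal was 2.56-fold the pit value. All 4 probe sets of Xbp1 were above the floor and highest in zymogenic RNA. The 3 that exceeded the floor in parietal RNA had parietal above pit, while 1420012_at was under it in both and gives no order there. The second brightest, 1420011_s_at, read 517, 228 and 138 in zymogenic, parietal and pit RNA. The others, 1420886_a_at and 1420012_at, read 99.8 and 57.7 in zymogenic RNA, 36.1 and 17.7 in parietal RNA and 16.3 and 9.19 in pit RNA. Zymogenic over parietal was thus 2.27-fold, 2.76-fold and at least 2.48-fold in the 3 further probe sets. Among the 10 factors, Xbp1 has the most probe sets in accord. The step over the parietal array nevertheless turned to a log2 ratio of -0.12 when the arrays were scaled to the BioB and BioC hybridisation controls, while that over the pit array stayed at 2.37. The probe sets were not used to tell spliced from unspliced Xbp1.

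The upstream sequences of these 2 factors are shown with that of Klf4, a factor lowest in zymogenic RNA, to set the letters bound by the class of Mist1 side by side in factors of opposite order. Each run is the 250 bases before the RefSeq start of the gene (build GRCm38.p6), 5′ to 3′ on the gene's strand, with capitals marking the E-box CANNTG, the letters that basic helix-loop-helix factors bind. Positions count back from -1, the base before the start.
Bhlha15 (chr5:144190036-144190285, plus strand): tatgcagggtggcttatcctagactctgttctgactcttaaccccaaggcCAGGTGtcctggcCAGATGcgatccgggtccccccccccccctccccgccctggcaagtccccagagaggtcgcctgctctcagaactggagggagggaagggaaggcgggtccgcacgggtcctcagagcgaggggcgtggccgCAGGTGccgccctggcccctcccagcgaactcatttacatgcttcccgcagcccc
Xbp1 (chr11:5520391-5520640, plus strand): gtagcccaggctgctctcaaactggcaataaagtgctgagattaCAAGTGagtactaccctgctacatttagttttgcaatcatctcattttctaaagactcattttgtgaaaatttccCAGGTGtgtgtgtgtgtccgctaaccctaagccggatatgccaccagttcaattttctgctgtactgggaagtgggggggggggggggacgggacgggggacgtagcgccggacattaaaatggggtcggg
Klf4 (chr4:55532476-55532725, minus strand): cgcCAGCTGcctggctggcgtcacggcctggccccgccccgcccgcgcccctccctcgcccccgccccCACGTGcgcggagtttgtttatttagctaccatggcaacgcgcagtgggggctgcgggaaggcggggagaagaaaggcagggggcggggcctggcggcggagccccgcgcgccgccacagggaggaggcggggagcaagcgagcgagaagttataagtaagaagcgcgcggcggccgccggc
Bhlha15 has 3 such matches, starting at -200, -187 and -55. Xbp1 has 2, at -206 and -131, and Klf4 has 2, at -247 and -182. As CANNTG reads the same on both strands as a pattern, 1 search covers both, and 66.2% of the 32851 RefSeq promoters hold it in a window of this length. Its presence therefore does not set zymogenic-high factors apart from Klf4. The Klf4 match at -182, CACGTG, also holds ACGTG on each strand, the letters around the ACGT core that XBP1 and related factors bind, which 16.6% of promoters hold. Of the 8 factors with an entry, 1, Klf4, has ACGTG before its start, and Bhlha15 has it at 20 to 24 bases after its start. Foxq1 and Ehf are the factors with no entry in the table.

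Genes that XBP1 is known to drive were examined next, from a list of 17 genes for chaperones, translocation and degradation in the endoplasmic reticulum. Of these, 13 were above the floor, 4 were at least 2-fold higher in zymogenic RNA than in either other (background 6.91%) and 0 lower (11.1%). The median log2 ratio of zymogenic to the mean log2 of the others was 0.73, beside -0.17 over all genes above the floor. The 4 were Herpud1, a membrane protein of protein degradation, Hyou1, a chaperone, Spcs3, a signal peptidase subunit, and Dnajc3, a co-chaperone. Herpud1 read 116 in zymogenic RNA against 20.1 in parietal and 10.3 in pit RNA, at least 4.98-fold. Hyou1 read 162 against 39.8 and 42.0, a 3.87-fold difference from the nearer array. The pit array was at least 2-fold lower than both others for Hspa5 (BiP), at 119 against 268 in parietal and 297 in zymogenic RNA, and for Sec61b. Hspa5 and Sec61b differed by less than 2-fold between parietal and zymogenic arrays. Scaling to BioB and BioC, which reversed the zymogenic over parietal step of Xbp1, was not examined for these linked genes. It moved the median zymogenic minus parietal log2 difference of genes above the floor on all arrays from -0.64 to -1.72.

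The endoplasmic reticulum stress response element, CCAAT and CCACG with a fixed spacer between them, is the textbook site through which ATF6 and XBP1 act. Searched on both strands, it lies within 250 bases before the start of 4 of the 14 XBP1-linked genes that have a RefSeq entry, beside 0.113% of all promoters. It is absent as these letters from the windows of the 8 factors with an entry. The list was drawn up from known genes of this response, so the match is a description of that list. The sites are shown because their genes can be set beside Xbp1 itself, with capitals for the fixed bases, 5′ to 3′ on the strand that reads CCAAT first (GRCm38.p6).
Dnajc3 (chr14:118937827-118937845, plus strand): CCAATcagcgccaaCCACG
Hspa5 (chr2:34772025-34772043, plus strand): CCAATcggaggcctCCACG
Pdia6 (chr12:17266491-17266509, plus strand): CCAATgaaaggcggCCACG
Creld2 (chr15:88819520-88819538, minus strand): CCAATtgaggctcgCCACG
Of these 4 genes, Dnajc3 read 128 in zymogenic RNA against 53.9 in parietal and 44.5 in pit RNA. Creld2, an endoplasmic reticulum protein induced by stress, read 153 against 77.2 and 61.9, a 1.99-fold step over the parietal array. Pdia6, a disulfide isomerase, read 33.5 against 33.4 and 9.17. For Dnajc3 and Creld2, parietal and pit values differed by less than the scatter between probe sets. Of the 4, Dnajc3 alone was 2-fold higher in zymogenic RNA than in either other.

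A list of genes linked to Mist1 in secretory cells was examined in the same way. Of 7 on the array, 3 were above the floor and 1 was at least 2-fold higher in zymogenic RNA (background 6.91%). This was Tmed6, of the family of vesicle cargo receptors, which read 347 in zymogenic RNA against 11.3 and 3.81 in parietal and pit RNA, at least 14.9-fold. Rab3d, a GTPase of secretory granules, read 42.6, 52.1 and 57.6 in zymogenic, parietal and pit RNA, and Rab26, another granule GTPase, was under the floor on all 3. Among partners of Mist1 and other regulators of secretory cells, 4 of 17 were above the floor. Rbpjl, which with Ptf1a drives enzyme genes of the exocrine pancreas, was among them and read 80.5 in zymogenic RNA against 1.46 in parietal and 1.53 in pit RNA, at least 3.46-fold. Ptf1a read 3.57 in zymogenic, 4.31 in parietal and 7.66 in pit RNA, all under the floor. Endocrine markers were highest on the same array as Bhlha15 and Rbpjl, with sums of 961 against 45.9 and 71.0. Among immune markers, Cd79a of the B lineage, in which Bhlha15 and Xbp1 also act, read 48.8 in zymogenic RNA against 0.45 in parietal and 4.99 in pit RNA. The pan-leukocyte marker Ptprc read 23.7 in zymogenic RNA, barely above the floor, against 3.04 in parietal and 2.81 in pit RNA. The remaining immune markers above the floor, Laptm5 and Lyz2, were instead highest in parietal RNA. Laptm5 read 66.9 in parietal, 51.9 in zymogenic and 27.1 in pit RNA. Lyz2 read 25.1 in parietal RNA and was under the floor in zymogenic and pit RNA. The part of these markers in the results for Bhlha15, Xbp1 and Rbpjl was not tested.

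**Figure D2:**
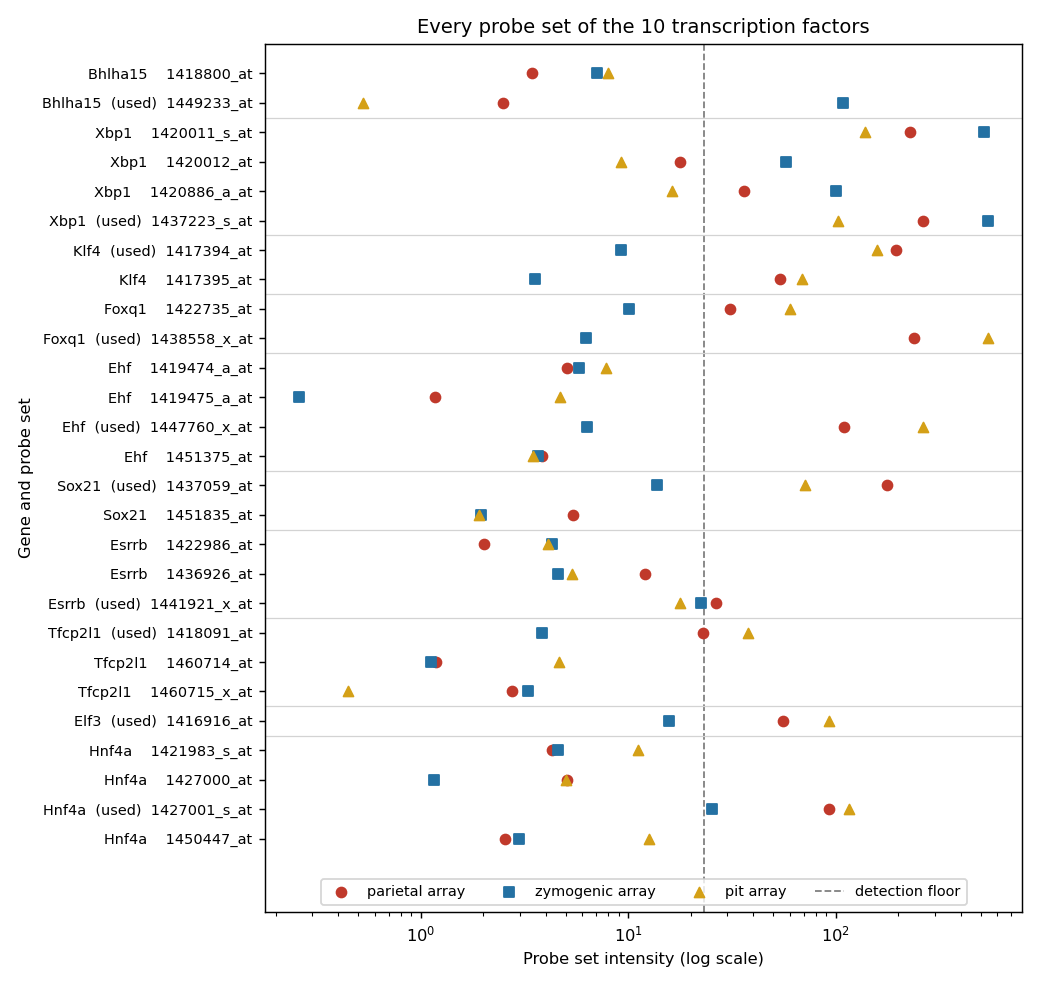
Intensity (log scale) of all 27 probe sets of the 10 factors on the 3 arrays, with the detection floor of 23.3 dashed and the probe set used for each gene marked. All 4 probe sets of Xbp1 and both of Klf4 and Foxq1 exceed the floor on some array, whereas Ehf, Hnf4a, Esrrb, Tfcp2l1, Sox21 and Bhlha15 each have 1 that does.

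Klf4 is a zinc finger factor that promotes cell cycle exit and differentiation in surface epithelia of the gut. Probe set 1417394_at read 194 in parietal RNA, 159 in pit RNA and 9.23 in zymogenic RNA. The zymogenic value lay at least 8.36-fold below the parietal and at least 6.82-fold below the pit value. Parietal and pit values differed by 1.23-fold, a log2 difference of 0.29 that is smaller than the scatter between probe sets. The second probe set, 1417395_at, read 53.7, 68.6 and 3.56 in parietal, pit and zymogenic RNA, which puts pit above parietal. Both probe sets of Klf4 were thus above the floor in the pit and parietal collections and under it in the zymogenic collection. The order of pit and parietal was not settled by the deposited values, and scaling to BioB and BioC gave a parietal minus pit log2 ratio of 1.42.

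Foxq1 is a forkhead factor required in the mouse stomach for Muc5ac, the gel-forming mucin of pit cells. Probe set 1438558_x_at read 542 in pit RNA, 238 in parietal RNA and 6.26 in zymogenic RNA. The pit value was 2.27-fold the parietal value and at least 23.3-fold the zymogenic value, which was under the floor. The second probe set, 1422735_at, gave the same order at lower intensity, with 59.9, 31.0 and 10.1, and a pit over parietal difference of 1.93-fold. Muc5ac itself ran in the same order as Foxq1, at 1225 in pit, 425 in parietal and 14.5 in zymogenic RNA, a 2.88-fold step from pit to parietal. A name ending in _x_at marks probes that may also match other transcripts, and the one probe set of Foxq1 free of that mark did not reach 2-fold between pit and parietal. With it, parietal lay at least 1.33-fold above zymogenic, so that Foxq1 no longer counted as 2-fold lower in zymogenic RNA than in either other. Scaled to the BioB and BioC controls, the parietal minus pit log2 ratio of Foxq1 went from -1.18 to -0.056.

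Ehf and Elf3 belong to the epithelium-specific branch of the ETS family, whose members bind GGAA sites in genes of barrier epithelia. For Ehf, probe set 1447760_x_at read 264 in pit RNA, 109 in parietal RNA and 6.34 in zymogenic RNA. Pit stood 2.42-fold above parietal and at least 11.3-fold above zymogenic. The other 3 probe sets of Ehf never exceeded 7.80 on any array. The Ehf pattern therefore rests on a probe set with possible cross-matches, and with probe sets specific to 1 transcript its log2 ratios were all 0, at the floor.

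Elf3 has 1 probe set, 1416916_at, which read 92.2 in pit RNA, 55.9 in parietal RNA and 15.7 in zymogenic RNA. The pit value was 1.65-fold the parietal value and at least 3.97-fold the zymogenic value. With the deposited values, Elf3 and Ehf thus shared the order pit, parietal, zymogenic, although only Ehf passed 2-fold between pit and parietal. After quantile normalization, Elf3 was no longer 2-fold lower in zymogenic RNA than in either other. With the BioB and BioC controls, Elf3 turned to a parietal minus pit log2 ratio of 0.40, from -0.72.

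Sox21, Esrrb and Tfcp2l1 were set beside each other as factors linked to the parietal lineage or to acid- and ion-transporting epithelia. Sox21, an HMG-box factor best known as a repressor in progenitor cells, read 177 in parietal RNA, 70.9 in pit RNA and 13.7 in zymogenic RNA with probe set 1437059_at. The parietal value was 2.49-fold the pit value and at least 7.61-fold the zymogenic value. Sox21 was the one factor at least 2-fold higher in parietal RNA than in either other. Its second probe set, 1451835_at, read 5.40, 1.91 and 1.95 in parietal, pit and zymogenic RNA, all under the floor. The Sox21 result thus rests on 1 probe set. Its parietal minus pit log2 ratio of 1.32 became 1.01 after quantile normalization and 2.45 with BioB and BioC. With the mean over probe sets it was 0.66, and Sox21 no longer counted as 2-fold higher in parietal RNA. On the parietal array, 3 of 13 parietal markers were 2-fold higher than in either other, among them Atp4b, at 4402 against 793 in zymogenic and 102 in pit RNA. The other 2 were Car2 and Clic6. The markers did not share 1 order, as Kcnq1, a potassium channel subunit, was 2.07-fold higher in zymogenic than parietal RNA, at 60.5 against 29.1. Atp4a, the partner subunit of Atp4b in the proton pump, read 261 in zymogenic, 214 in parietal and 12.5 in pit RNA. The zymogenic array was last for Sox21 and Car2, and the pit array for Atp4b, Clic6 and Atp4a. The mucous neck marker Tff2 had the order of Sox21, at 402, 110 and 21.9 in parietal, pit and zymogenic RNA. The only other neck marker above the floor, Gkn3, read 10.8, 28.7 and 8.56 in the same order. The part of these markers in the Sox21 result was not tested.

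Esrrb, an orphan nuclear receptor of the estrogen-related family, hardly cleared the floor. Its brightest probe set, 1441921_x_at, read 26.4 in parietal RNA, 22.4 in zymogenic RNA and 17.7 in pit RNA, and only the parietal value was above 23.3. The others, 1436926_at and 1422986_at, read 12.0 and 2.02 in parietal RNA, and no more than 5.37 elsewhere. The brightest probe set, with possible cross-matches by its _x_at ending, gave parietal at least 1.14-fold above the other arrays. Scaling to BioB and BioC raised the parietal minus pit log2 ratio of Esrrb from 0.19 to 1.24, past 2-fold. With transcript-specific probe sets, the log2 ratios of Esrrb were all 0, at the floor. Esrra, the related receptor most tied to mitochondrial genes, read 25.4 in pit, 16.5 in parietal and 1.79 in zymogenic RNA, and Esrrg stayed under the floor. Of 8 mitochondrial genes linked to these receptors, 6 were above the floor, and Sdhb, a subunit of succinate dehydrogenase, was at least 2-fold higher in parietal RNA, at 387 against 164 and 168 in zymogenic and pit RNA. Cycs, cytochrome c, was lowest in zymogenic RNA, at 26.3 against 372 in parietal and 187 in pit RNA.

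Tfcp2l1, of the CP2 and Grainyhead family, acts in acid- and salt-transporting ducts of the kidney and in pluripotent cells. Probe set 1418091_at read 37.9 in pit RNA, 22.9 in parietal RNA and 3.85 in zymogenic RNA, and only the pit value was above the floor. The pit value was at least 1.63-fold above the other arrays, an order that scaling to BioB and BioC turned to a parietal minus pit log2 ratio of 0.40. With a lower floor of 10.9, the 90th percentile among olfactory and vomeronasal receptors, Tfcp2l1 became a seventh factor at least 2-fold lower in zymogenic RNA than in either other. The remaining probe sets, 1460714_at and 1460715_x_at, never exceeded 4.65.

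Hnf4a is a nuclear receptor that maintains epithelial identity in liver and gut. Probe set 1427001_s_at read 116 in pit RNA, 92.9 in parietal RNA and 25.3 in zymogenic RNA, the last just above the floor. Pit and parietal differed by 1.25-fold, within the scatter between probe sets and turned to a parietal minus pit log2 ratio of 0.80 by scaling to BioB and BioC, while zymogenic lay 3.68-fold under parietal and 4.60-fold under pit. The further 3 probe sets of Hnf4a, which include 1450447_at, read at most 12.6 on any array. This pattern too thus rests on 1 probe set, whose _s_at ending marks it as not specific to 1 transcript. With transcript-specific probe sets, the log2 ratios of Hnf4a were all 0, at the floor. Of 8 genes that HNF4A regulates in liver and gut, 5 were above the floor. Ttr, which carries thyroid hormone, read 2889 in zymogenic RNA against 232 and 31.1 in parietal and pit RNA. Apoa1, the main protein of high-density lipoprotein, was highest in parietal RNA, at 734 against 158 in zymogenic and 12.4 in pit RNA. Vil1, the microvillus protein villin, had the order of Hnf4a, at 46.3 in pit, 35.5 in parietal and 0.59 in zymogenic RNA. The apolipoprotein genes Apoa4 and Apob were above the floor in parietal and zymogenic RNA, at 38.0 and 36.2 for Apoa4 and 34.7 and 27.4 for Apob, and under it in pit RNA. The 5 genes thus did not share 1 order, and Vil1 was the one among them under the floor in zymogenic RNA.

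Pair by pair, the same 6 factors that were lower in zymogenic RNA than in either other made up the 6 that were at least 2-fold higher in pit than in zymogenic RNA (background 18.7%) and in parietal than in zymogenic RNA (20.9%). The reverse held for Bhlha15 and Xbp1, higher in zymogenic than pit (10.3%) and than parietal (7.64%). Between the parietal and pit arrays, 2 factors were at least 2-fold higher in parietal RNA, Xbp1 and Sox21 (12%), and 2 in pit RNA, Foxq1 and Ehf (6.4%). The median log2 difference over the 10 factors was -1.80 between zymogenic and pit and -1.57 between zymogenic and parietal RNA (zymogenic less the other), where the medians over all 4138 genes were -0.0011 and -0.14. Over the 1186 genes above the floor on all 3 arrays, these medians were -0.21 and -0.64. For parietal minus pit the factors had a median of -0.16, all 4138 genes one of 0 and the 1186 genes one of 0.29. The comparisons share arrays, and the factors were proposed with results of these data in view, so the counts describe this list only.

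**Figure D3:**
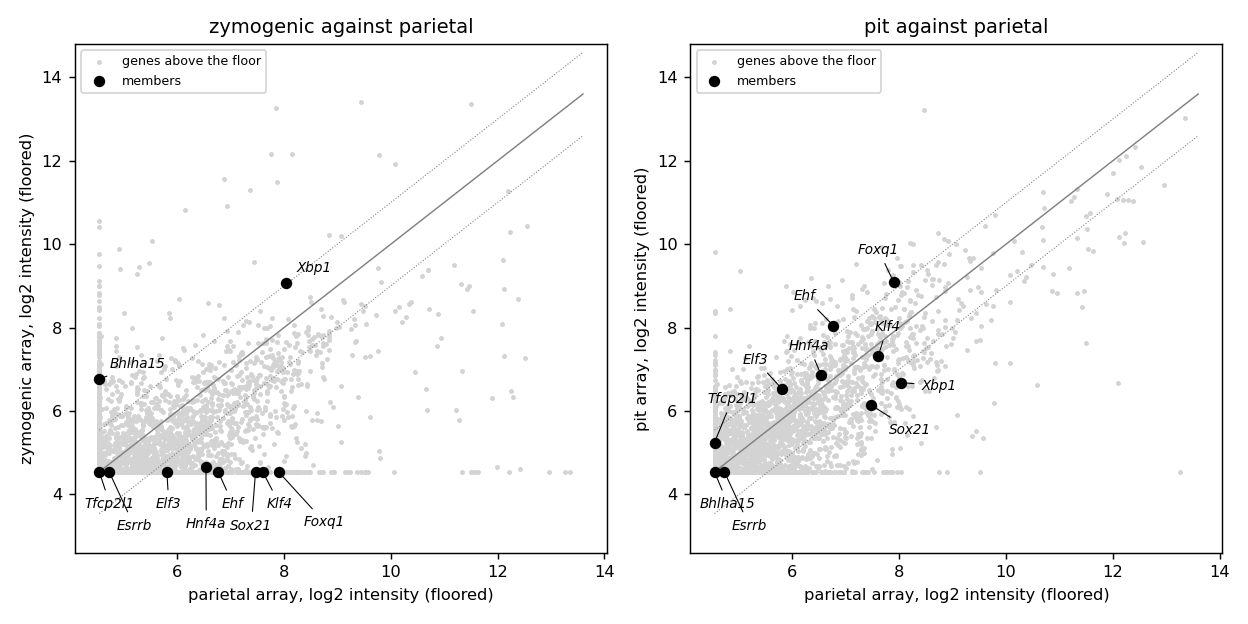
Floored log2 intensity of the 4138 genes above the floor (grey) and of the 10 factors (black) for zymogenic (left) and pit (right) against parietal RNA, with the line of equality and dotted lines at 2-fold. Against the parietal array, 6 factors lie 2-fold or more below equality in zymogenic RNA, and Foxq1 and Ehf lie above the upper dotted line in pit RNA.

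At a threshold of 4-fold, Bhlha15 was higher in zymogenic RNA (background 2.59%), and Klf4, Foxq1 and Ehf were lower there (3.94%). No factor was 4-fold higher or lower than both others in parietal RNA (1.16% and 0.0483% of all genes) or in pit RNA (0.894% and 0.507%). By pairs, Bhlha15 and Xbp1 were 4-fold higher in zymogenic than pit (3.36%), and Bhlha15 alone in zymogenic than parietal (2.83%). Klf4, Foxq1, Ehf and Hnf4a were 4-fold higher in pit than zymogenic (7.03%), and Klf4, Foxq1, Ehf and Sox21 in parietal than zymogenic (6.33%). Between parietal and pit, 0 factors differed by 4-fold in either direction (2.44% of genes with parietal higher, 0.967% with pit higher). The pit markers moved with those factors, at summed levels of 22430 and 16240 in parietal and pit RNA against 223, and their part in the result was not tested.

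Regulators related to the 10 factors were counted in 7 lists. The list of estrogen-related receptors and coactivators, with 2 of 9 above the floor, was not among them. In the 7 lists, 23 of 98 genes on the array, or 23.5%, were above the floor on some array, beside 22.7% of all genes. Of these, 2 were at least 2-fold higher in zymogenic RNA, Rbpjl and the forkhead factor Foxk2 (81.1 against 14.9 in parietal and 12.0 in pit RNA), and 1 was lower, Foxa2. Foxa2, a pioneer factor of endoderm, read 90.7 in parietal, 54.5 in pit and 20.4 in zymogenic RNA. This share of 4.35% lower in zymogenic RNA stands beside 6 of the 10 factors and 11.1% of all genes above the floor. A gene can be called lower there only where its parietal and pit values both lie at least 2-fold above the floor. Related factors such as Ets2 and Pparg did not, so the floor limits this share. The shares therefore do not set the 10 factors apart from their families.

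The families of the factors gave levels on all arrays for few genes. Among 12 Krüppel-like factors besides Klf4, 5 were above the floor and 0 differed by 2-fold from both others. Klf9, a factor induced by steroid and thyroid hormones, read 281 in zymogenic, 249 in pit and 163 in parietal RNA, and Klf15 was above the floor in zymogenic RNA alone. Klf6, Klf3 and Klf16 were under the floor in zymogenic RNA, as was Klf4. Klf6 read 45.4 in pit and 21.7 in parietal RNA, Klf3 15.2 and 25.4, and Klf16 24.9 and 34.0. Of 18 ETS factors 3 were above the floor, and Ets2 had the order of Ehf and Elf3, at 55.3, 31.7 and 12.9 in pit, parietal and zymogenic RNA. Spdef, the ETS factor of mucous secretory cells, and all 13 SOX factors besides Sox21 stayed under the floor on every array. Of 12 gut endoderm factors 3 were above it. Gata4, a zinc finger factor of foregut endoderm, read 45.0 in zymogenic RNA, 23.9 in pit RNA and 13.4 in parietal RNA. The intestinal factor Cdx2, at 7.70 or less, and Pdx1, at 5.51 or less, were under the floor. Among 15 factors of tissues such as muscle, neurons and blood, 1 was above it, Neurod2, at 24.0 in zymogenic RNA.

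**Figure D4:**
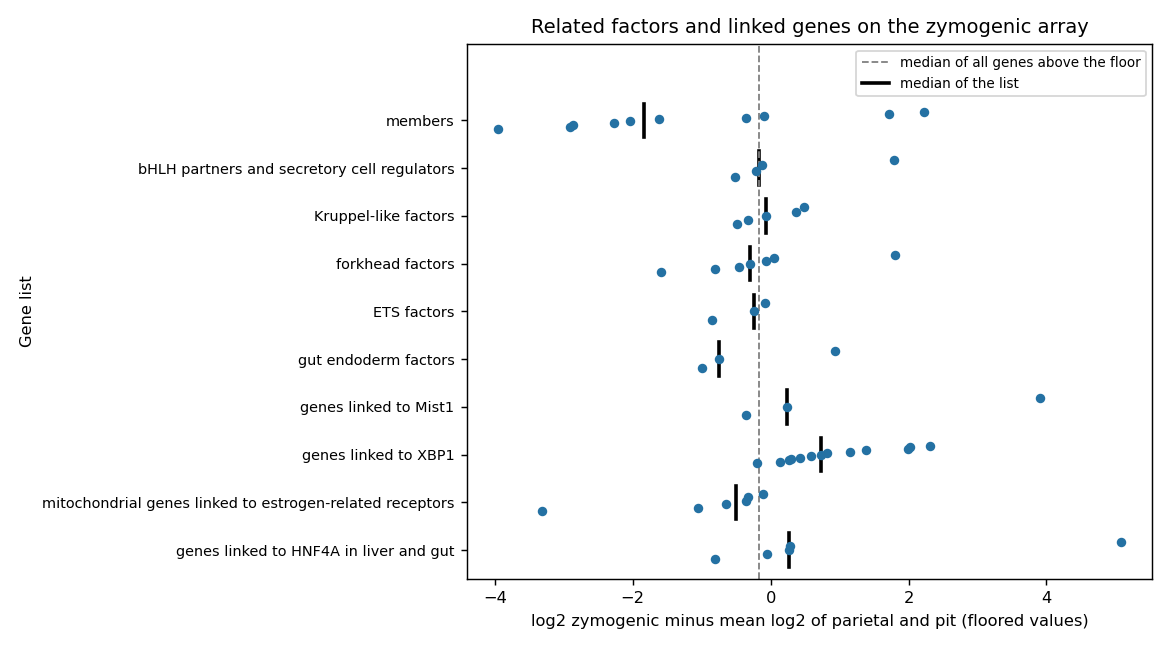
Log2 intensity in zymogenic RNA minus the mean log2 of the parietal and pit arrays (floored), 1 point per gene above the floor, for the 10 factors, families of related factors and genes linked to them. Black bars are list medians, at -1.83 for the factors and 0.73 for genes linked to XBP1, and the dashed line is the median of all genes, -0.17.

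Genes of most like pattern were found by the distance between the 3 floored log2 values, each gene's mean subtracted, among genes above the floor on the same arrays. With 3 arrays such likeness is a description, and where a value lies under the floor the distance says nothing of its true level. For Xbp1, among 1185 candidates, they were Bgn, Arl3 and Ppib at distances of 0.12, 0.31 and 0.35 log2 units. Ppib, a prolyl isomerase of the endoplasmic reticulum, read 1167 in zymogenic, 539 in parietal and 290 in pit RNA, the order of Xbp1. For Klf4, among 797 candidates, they were Ethe1, Ldha and Nqo1 at 0.16, 0.17 and 0.19, metabolic and detoxifying enzymes whose zymogenic values were all under the floor, at 12.5 or less. For Foxq1 they were Leng9, Pogz and Simc1 (0.076 to 0.26), and for Ehf Dsg2, Slc25a10 and Tor3a (0.14 to 0.21). Dsg2, a desmosomal cadherin of epithelia, read 297 in pit, 123 in parietal and 22.2 in zymogenic RNA, next to 264, 109 and 6.34 for Ehf. For Sox21 they were Gstm1, Agr2 and Far1 (0.20 to 0.36), of which Agr2, a disulfide isomerase of mucous cells, read 149 in parietal, 55.1 in pit and 6.49 in zymogenic RNA. For Elf3 they were Slc39a4, a zinc importer, Rnf128 and Slc9a3r2 (0.019 to 0.081), and for Hnf4a Cd151, Myadm and Ptdss1 (0.030 to 0.065). Bhlha15, Esrrb and Tfcp2l1 were each above the floor on 1 array, so their nearest genes match only the height of that value. These were Nrip2, Ica1 and Ins2 for Bhlha15, Rheb, Zcchc7 and Dpcd for Esrrb, and Lrp1, Itpk1 and Timp4 for Tfcp2l1.

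The comparison of parietal with pit RNA depended on the scaling. Mean intensity of BioB and BioC was 359 in parietal, 798 in zymogenic and 784 in pit RNA, and scaling to them moved the median parietal minus pit log2 difference of genes above the floor on all arrays from 0.29 to 1.36, a shift shared by the factors. Under it Klf4, Sox21 and Esrrb were at least 2-fold higher in parietal RNA, beside 29.3% of the 6317 genes then above the floor. The factors thus stood near the share over all genes. In pit RNA 0 factors were so, beside 0.902% of those genes. Hnf4a, Elf3 and Tfcp2l1 turned from higher in pit to higher in parietal RNA. Quantile normalization brought the median zymogenic minus parietal log2 difference from -0.64 to -0.080, and of all genes called in zymogenic RNA 58.6% were then higher, against 38.4% with the deposited values and 21.2% by BioB and BioC. In pit RNA that share was 68.9% with the deposited values and 20.6% with those controls, and in parietal RNA 95.1% with the deposited values and 81.2% after quantile normalization. Under the 3 scalings (1 common median, quantile normalization, BioB and BioC), zymogenic Klf4, Foxq1, Ehf, Sox21 and Hnf4a remained at least 2-fold under both other arrays. The choice of probe sets changed this list. Averaging probe sets left Klf4, Foxq1 and Elf3 (5.67% of all genes), and transcript-specific probe sets left Klf4, Sox21 and Elf3 (9.62%).

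**Figure D5:**
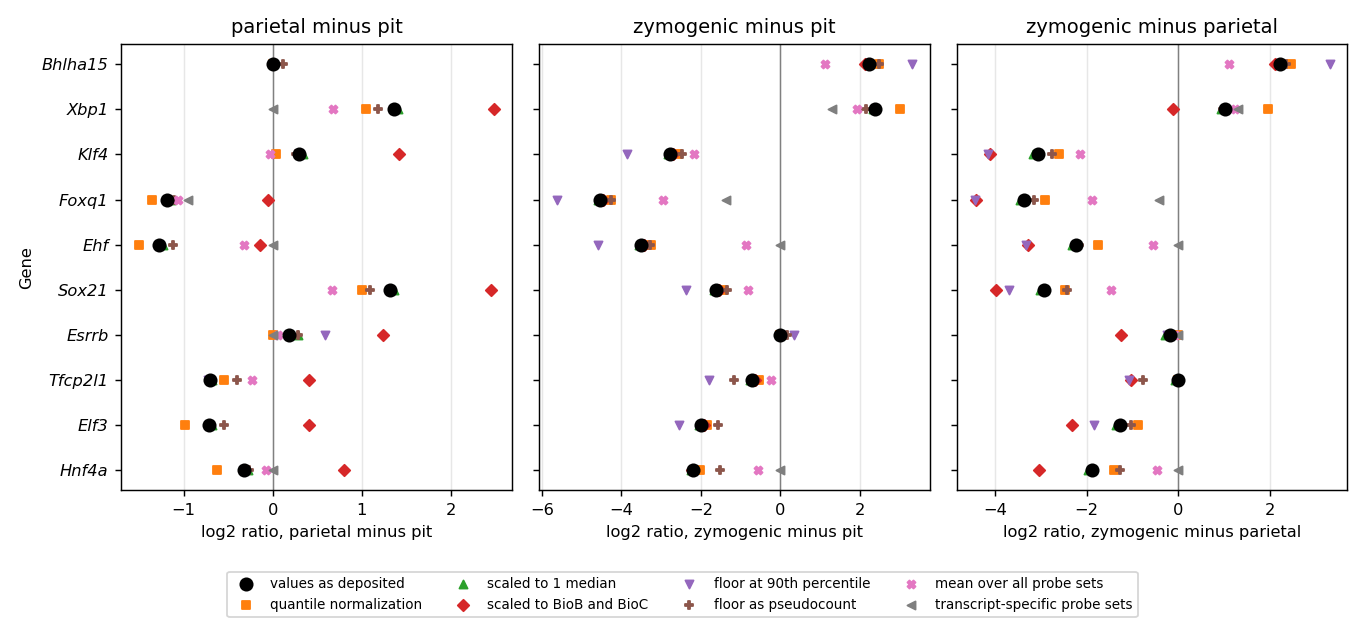
Log2 ratios of the 10 factors between each pair of arrays, with the deposited values (large black points) and alternatives of scaling, floor and probe set choice. The parietal minus pit ratio of Xbp1 goes from 1.36 to 2.49 with scaling to BioB and BioC and to 0 with transcript-specific probe sets, with which the ratios of Ehf and Hnf4a are also 0.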

How the data were processed

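RNA of pooled, laser-captured parietal, zymogenic and pit cells was hybridised to 1 array per lineage, grouped by sample title. The deposited values are probe set intensities on a linear scale. In the sources used here it is not given how probes were summarised, corrected for background and scaled. The labels' design text speaks of total RNA, whereas the samples' molecule field has nuclear RNA, and the values do not settle which holds. Array medians were 4.50, 4.81 and 4.64 for parietal, zymogenic and pit, with maxima of 12079, 11325 and 11141, and precision is limited by having 3 arrays. Of 45101 probe sets, 64 are controls, 34958 name 1 gene and 932 name several, which were left out. Symbols were updated through RefSeq gene identifiers for 34754. For each gene, the probe set with the greatest mean intensity stood for it. Values under the floor of 23.3 were raised to it, and a gene was called at 2-fold from both other arrays.

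The factors and gene lists were chosen with earlier results of these data known. Named genes are all 10 factors, the 3 nearest in pattern to each, and up to 4 genes per related list that lay at least 2-fold from both other arrays; other list genes are examples chosen after their values were seen. Promoters are from RefSeq (GRCm38.p6), with 8 of 10 factors matched. No reference genome was used. Alternatives were quantile normalization, scaling to 1 median or to 10 BioB and BioC probe sets, a lower floor (90th percentile) and a higher one (99th), adding the floor to each value in place of raising to it, averaging a gene's probe sets, transcript-specific probe sets, a 4-fold threshold and leaving out the zymogenic array, and, chosen after seeing the data, the parietal array. Calculations used Python 3.11.15, numpy 2.4.6, pandas 2.3.3 and matplotlib 3.10.9, and the calls were tested on simulated data.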

Additional observations from a re-analysis of the deposited data

How the results depend on the processing

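No paired analysis was possible because each lineage has 1 array and the labels give no replicate numbers. The main counts were 1 factor higher in parietal RNA, 2 higher and 6 lower in zymogenic RNA, 2 higher and 1 lower in pit RNA, 20 of 30 pairwise ratios at 2-fold or more, and 15 probe sets above the floor. The shares over all genes beside these counts of factors are given above, by array and by pair. Bhlha15 alone was higher in zymogenic RNA with 1 median (6.42% of all genes), with BioB and BioC (2.85%) and with the pseudocount (6.96%). With BioB and BioC, 3 factors were higher in parietal RNA (29.3% of all genes above the floor) and 0 in pit RNA (0.902%). The zymogenic minus parietal log2 ratio of Xbp1 then reversed from 1.03 to -0.12. With the floor at the 99th percentile, 868, every one of these counts was 0, since all values of the factors lay under it. The mean over probe sets gave 0 higher in parietal RNA (3.65% of all genes) and 3 lower in zymogenic RNA, Klf4, Foxq1 and Elf3 (5.67%). It gave 1 higher (2.45%) and 0 lower (1.39%) in pit RNA, and 12 pairwise ratios. Transcript-specific probe sets gave 3 lower in zymogenic RNA, Klf4, Sox21 and Elf3 (9.62% of all genes). They gave 0 higher (5.69%) and 0 lower (1.76%) in pit RNA, and 12 pairwise ratios. For these pairwise counts the share over all genes was not taken. At 4-fold, 0 were higher in parietal RNA (1.16% of all genes), and 1 higher (2.59%) and 3 lower (3.94%) in zymogenic RNA. In pit RNA 0 were higher (0.894%) and 0 lower (0.507%), and 11 pairwise ratios reached 4-fold. Without the zymogenic array, 2 factors were higher (14.4% of genes) and 2 lower (7.7%) in parietal RNA, and 2 lower in pit RNA (14.4%). Without the parietal array, 6 were higher (21.3%) and 2 lower (11.8%) in pit RNA. Of 260 log2 ratios of single factors under the alternatives, 175 moved by less than the probe set scatter of 0.48, 84 moved by more and 1 that had passed 2-fold reversed. The 175 include 10 without the zymogenic and 10 without the parietal array, which could not move because the remaining pair is unchanged. Ratios with both values under the floor, such as parietal minus pit of Bhlha15, had little room to move. The 175 is thus no measure of stability. Apart from the alternatives' own construction (other floors, fewer or other probe sets, fewer arrays), the cause of the moves was not tested. Esrrb and Tfcp2l1 had only 1 value each above the floor.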
